A study of Mus musculus with 20 samples.

Results

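Slc40a1 encodes ferroportin, the only known transporter that exports non-heme iron from mammalian cells. It is 1 of 18193 genes with a symbol on the array used. Of the array's 45101 probe sets, 2 are annotated to Slc40a1 alone, both were taken, and 45037 were tested once Affymetrix's own controls were left out. They are called the brighter probe set (1417061_at) and the dimmer probe set (1448566_at) here, after their signals. A probe set reads 1 stretch of a transcript with its own probes, so the 2 levels cannot be compared with each other as amounts of RNA, and the changes within each can. The annotation assigns both to the same mRNA record. RefSeq (assembly GRCm38.p6) places Slc40a1 on mouse chromosome 1 and lists 3 transcripts for it, 1 curated and 2 predicted.

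Ferroportin sits in the basolateral membrane of duodenal enterocytes, where absorbed iron enters the blood, and in macrophages of spleen, liver and bone marrow, which return iron from old red cells. Its main mRNA carries an iron-responsive element (IRE), a stem-loop in the 5' UTR. Iron regulatory proteins 1 and 2 bind it in iron-poor cells and block translation. In mouse enterocytes and erythroid precursors another ferroportin mRNA, started at an upstream promoter, lacks the IRE and escapes this block. Which of these forms each probe set reads is not given in the sources used here, so the share of the form without an IRE was not measured.

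The study asked which mRNAs recombinant IRP1 pulls down from mouse tissue RNA. IRP1 reactions combined 50 µg of pooled total RNA from C57BL6/J mice with His-tagged protein expressed in E. coli and an anti-IRP1 serum raised in rabbits, and control reactions left out the protein. Duodenum, liver and spleen came from mice given iron-poor food (below 10 mg/kg) for 21 days from weaning, and bone marrow and brain from mice of 8 to 10 weeks on iron-normal food, with both sexes mixed. Each tissue had 2 IRP1 and 2 control arrays (Affymetrix Mouse430_2), 20 arrays in 10 groups. Diet and age therefore go with tissue and cannot be told apart from it. The RNA was free in solution and the IRP1 was added, so the measurement is of binding in a tube and not of binding inside cells. RNA was pooled for each tissue, and whether both replicates came from 1 pool is not given, so p-values measure the spread between these samples, which may be technical, and not between single animals.

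The mean over each tissue's marker list was highest in the tissue named by the label, though single markers such as Mbp, Gfap and Anpep were not. On 3 arrays (spleen IRP1 replicate 2, spleen control replicate 2 and bone marrow control replicate 1) the hybridization controls lay 1.06, 1.26 and 0.74 log2 units below the median of all arrays. Results in spleen and bone marrow are given with and without these 3. Without them spleen has 1 IRP1 and 1 control array and bone marrow 1 control array, and these lone arrays are assumed to vary like the other groups. Array medians lay between 5.50 and 5.62 and array maxima between 15.14 and 15.35 on the log2 scale.

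Ferroportin mRNA was enriched by IRP1 over the control reaction. The dimmer probe set was called higher in liver, spleen, bone marrow and brain, and the brighter one in bone marrow and brain. Averaged over the tissues, the dimmer probe set rose 7.10-fold with IRP1 (log2 change 2.83 ± 0.13, SE, adjusted p = 2.96e-09) and ranked 5 among 45037 probe sets. The brighter one rose 2.56-fold (1.36 ± 0.12, adjusted p = 7.05e-06) and ranked 51. In this mean, 0.773% of all probe sets were called higher at an adjusted p under 0.05 in limma. In every tissue both IRP1 arrays lay above both control arrays for each probe set, a pattern that 0.409% of all probe sets shared.

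**Figure D1:**
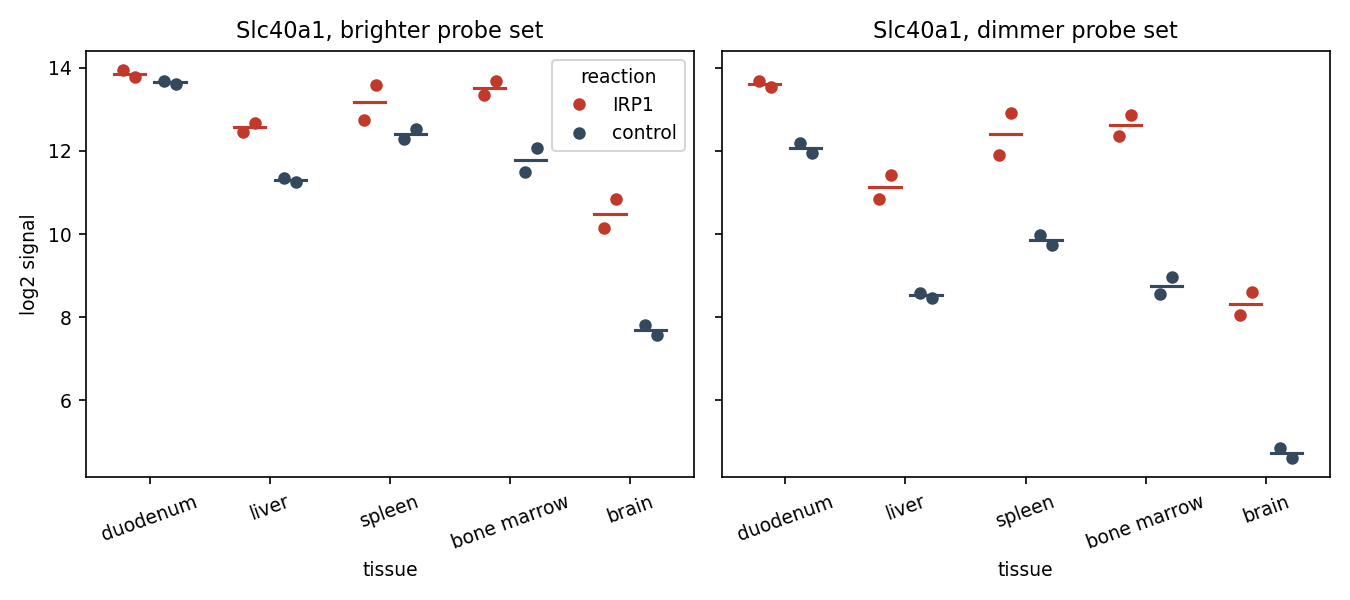
Log2 signal of the brighter and the dimmer Slc40a1 probe set on each of the 20 arrays, by tissue, IRP1 left of control; each point is 1 array. The duodenal control arrays are the highest of the controls for both probe sets (13.61 and 13.69, and 11.95 and 12.18), and the brain controls are the lowest.

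Without IRP1, the control arrays show how much ferroportin signal each tissue gave in the background of the reaction. The brighter probe set averaged 13.65 ± 0.05 in duodenum, 12.40 ± 0.18 in spleen, 11.78 ± 0.42 in bone marrow, 11.31 ± 0.07 in liver and 7.69 ± 0.18 in brain (SD, n = 2 each). The dimmer one averaged 12.06 ± 0.17 in duodenum, 9.86 ± 0.17 in spleen, 8.76 ± 0.28 in bone marrow, 8.52 ± 0.08 in liver and 4.73 ± 0.17 in brain. Both gave the same order, duodenum first and brain last. These are bulk tissues, so fewer cells of a type and less RNA per cell cannot be told apart.

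Of the 10 pairs of tissues, limma called 8 for the brighter probe set and 9 for the dimmer, where 33.8% of all probe sets were called in a pair on average, in either direction. Duodenum exceeded brain by 5.96 ± 0.27 log2 units on the brighter and 7.33 ± 0.30 on the dimmer probe set (adjusted p = 1.10e-11 and 2.85e-12). The dimmer one lay below the array medians in brain controls, and with a floor at log2 6 its difference was 6.06. Duodenum exceeded spleen, its neighbour in the order, by 1.25 and 2.20 (adjusted p = 0.00164 and 1.78e-05). Liver and bone marrow were not separated, with differences (liver minus bone marrow) of -0.47 (95% interval -1.04 to 0.10) and -0.23 (-0.86 to 0.40). Without the 3 arrays the brighter one was called (-0.76, adjusted p = 0.0410). Spleen minus bone marrow was 0.63 on the brighter probe set (adjusted p = 0.126) and 1.11 on the dimmer (adjusted p = 0.0152). That call on the dimmer probe set was lost in 4 of 27 other settings, among them the one without the 3 arrays.

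Macrophage markers were ordered otherwise. Over 16 macrophage genes the mean control signal was 9.75 in spleen, 8.87 in liver, 7.57 in bone marrow, 7.16 in duodenum and 6.44 in brain. Over 9 enterocyte genes it was 11.95 in duodenum and 8.02 in liver. The liver value came mostly from Fabp1 (13.94), Apoa4 (12.02) and Fabp2 (11.01), and the rest of that list read 4.72 to 7.36 there. Over 8 erythroid genes the mean control signal was 11.90 in bone marrow and 10.51 in spleen. The part of these cells in the ferroportin order was not tested. Of 165 tests of these 33 genes between IRP1 and control in single tissues, limma called 0. Of all probe sets, 0.0688% to 0.127% were called higher in a tissue and 0.00444% to 0.0933% lower. At an unadjusted limma p under 0.05 there were 6 of the 165. Of all 18193 genes, that threshold gave 416 higher and 396 lower in duodenum, the fewest. It gave 849 higher and 1887 lower in liver, the most.

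In duodenum the brighter probe set read 13.94 and 13.78 with IRP1, against 13.69 and 13.61 in controls. The groups did not overlap, but the gap between them was only 0.09. In duodenum, 16.6% of all probe sets had both IRP1 arrays above both controls. The change was 0.21 ± 0.27 (1.16-fold, 95% interval 0.777 to 1.72, adjusted p = 0.999986). The dimmer probe set read 13.68 and 13.52 with IRP1, against 12.18 and 11.95 in controls. Its change was 1.54 ± 0.30 (2.90-fold, interval 1.87 to 4.50), with an adjusted p of 0.0777, where 0.0799% of all probe sets were called higher. It ranked 35 among all probe sets in this tissue. Its adjusted p was under 0.05 under 5 other settings, among them the fit on duodenal arrays alone (0.0262), and also without either spleen IRP1 array (0.0135 each). Enterocyte markers averaged 11.85 with IRP1 and 11.95 in controls. Pancreatic acinar markers averaged 13.56 with IRP1 and 14.05 in controls, and their part in the duodenal values was not tested.

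In liver the brighter probe set read 12.46 and 12.67 with IRP1, against 11.36 and 11.26 in controls. This change of 1.26 ± 0.27 (2.39-fold) was not called (adjusted p = 0.0865), where 0.091% of probe sets were called higher. It was called when the 3 arrays were left out (adjusted p = 0.0414), when either spleen IRP1 array was, and after quantile normalization. The dimmer probe set read 10.84 and 11.42 with IRP1, against 8.58 and 8.47 in controls. It rose 6.10-fold (2.61 ± 0.30, adjusted p = 0.00135) and ranked 5 in this tissue.

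Among the IRP1 arrays, spleen gave the widest spread between replicates (SD 0.60 on the brighter and 0.73 on the dimmer probe set). The brighter probe set read 12.75 and 13.59 with IRP1, against 12.28 and 12.53 in controls, a change of 0.77 ± 0.27 (1.71-fold, adjusted p = 0.381). It was 0.35 without IRP1 replicate 2 and 1.19 without IRP1 replicate 1. The dimmer one read 11.89 and 12.92 with IRP1, against 9.98 and 9.75 in controls. It rose 5.82-fold (2.54 ± 0.30, adjusted p = 0.00128) and ranked 14 in this tissue, where 0.0688% of probe sets were called higher. In each case the higher IRP1 array was replicate 2, one of the arrays with low hybridization controls. Without the 3 arrays the changes were 0.47 on the brighter and 1.91 on the dimmer probe set (adjusted p = 0.711 and 0.187), from 1 array of each reaction. The call was also lost without spleen control replicate 2 alone (2.42, adjusted p = 0.0572). Hepatocyte markers averaged 6.32 with IRP1 and 6.27 in controls in spleen replicate 1, and 7.96 with IRP1 and 8.09 in controls in replicate 2. The part of this difference in the spleen values was not tested.

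Bone marrow held the largest change of the dimmer probe set. It read 12.35 and 12.87 with IRP1, against 8.55 and 8.96 in controls, and rose 14.5-fold (3.86 ± 0.30, adjusted p = 9.29e-06). It ranked 4 in this tissue, where 0.127% of probe sets were called higher, and stayed called without the 3 arrays (3.66, adjusted p = 0.000185). The brighter probe set read 13.35 and 13.69 with IRP1, against 11.48 and 12.07 in controls, and rose 3.35-fold (1.74 ± 0.27, adjusted p = 0.00989). Without the 3 arrays this change was 1.45 (adjusted p = 0.0848). The call was also lost without bone marrow control replicate 1 alone (adjusted p = 0.280), without bone marrow IRP1 replicate 2 (0.240) and in 2 other settings.

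Brain held the largest change of the brighter probe set and the lowest signals. The brighter one read 10.13 and 10.83 with IRP1, against 7.82 and 7.56 in controls, and rose 6.93-fold (2.79 ± 0.27, adjusted p = 9.03e-05). The dimmer one read 8.04 and 8.62 with IRP1, against 4.86 and 4.61 in controls. It rose 12.1-fold (3.59 ± 0.30, adjusted p = 3.82e-05) and ranked 2 in this tissue, where 0.0866% of probe sets were called higher. Its control mean lay below the array medians, with 29849 other probe sets above it. With a floor at log2 6 on all values its change was 2.33. In a fit on the 4 brain arrays alone neither brain change was called (adjusted p = 0.243 brighter, 0.115 dimmer). That fit called 0 of all probe sets higher, so the lost calls are not particular to Slc40a1.

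**Figure D2:**
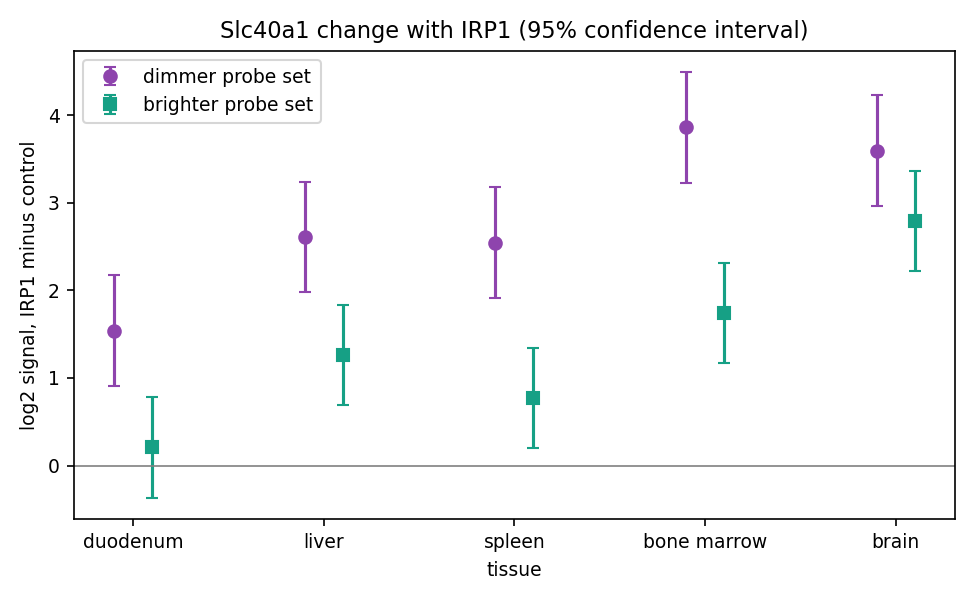
Log2 change, IRP1 minus control, of the dimmer (circles) and brighter (squares) Slc40a1 probe set in each tissue, with 95% confidence intervals from limma. The dimmer probe set has the larger estimate in every tissue (with a floor at log2 6, the smaller in brain), duodenum has the smallest change on both, and only the brighter probe set in duodenum has an interval that includes 0.

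Both probe sets had their smallest change in duodenum. The duodenal change minus the mean change of the other 4 tissues was -1.43 ± 0.30 on the brighter probe set and -1.61 ± 0.33 on the dimmer. Among all 45037 probe sets these were the second most negative and the most negative values of that contrast. Neither was called after adjustment (adjusted p = 0.582 and 0.575), where 0% of probe sets were called in either direction. After quantile normalization both were called, at -1.48 and -1.53 (adjusted p = 0.0268 and 0.0385).

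Over all 5 tissues, the F-test for unequal changes gave adjusted p = 0.231 for the brighter and 0.446 for the dimmer probe set, where 0.0111% of probe sets were called. Of the 10 pairs of tissues, 0 were called for either probe set, where 0.00511% of all probe sets were called in a pair on average. At an unadjusted limma p under 0.05 the counts were 7 for the brighter and 8 for the dimmer, where the average share was 5.27%. The pair nearest to a call was duodenum minus brain on the brighter probe set, at -2.58 (95% interval -3.39 to -1.77, adjusted p = 0.0557), called in 6 of 27 other settings.

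The order of the tissue changes differed between the probe sets at its upper end. On the dimmer one, bone marrow minus brain was 0.26 (95% interval -0.63 to 1.16), and on the brighter one -1.05 (-1.86 to -0.24). Liver minus spleen was 0.07 (-0.83 to 0.96) on the dimmer and 0.49 (-0.32 to 1.30) on the brighter. On the dimmer, the sign of bone marrow minus brain turned in 2 of 27 other settings and that of liver minus spleen in 3. With the floor at log2 6 the dimmer change in brain, 2.33, lay below those in liver and spleen. With IRP1 the tissues lay closer together than without it. The range of tissue means was 3.38 with IRP1 and 5.96 in controls on the brighter probe set, and 5.27 with IRP1 and 7.33 in controls on the dimmer. Duodenum stayed the highest and brain the lowest. Bone marrow and spleen arrays overlapped with IRP1 on both probe sets.

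The probe sets changed unequally. The log2 signal of the dimmer minus that of the brighter, taken on each array, is a gap that does not move when both follow the same RNA on a linear scale. In duodenum this gap averaged -0.26 with IRP1 and -1.59 in controls. In liver it averaged -1.43 with IRP1 and -2.78 in controls, and in spleen -0.77 with IRP1 and -2.54 in controls. In bone marrow it averaged -0.91 with IRP1 and -3.02 in controls, and in brain -2.15 with IRP1 and -2.96 in controls. On the deposited values the gap was narrower on every IRP1 array than on both controls of its tissue, by 0.80 in brain to 2.11 in bone marrow. Its mean change was 1.47, with a two-sided exact permutation p of 0.000257 over 7776 arrangements within tissues, the smallest p they can give. With the floor at log2 6, which raises the dim brain controls, the gap change in brain turned to -0.47, the mean change was 1.22 and the exact permutation p 0.00154. Across the 20 arrays the probe sets still moved together (r = 0.966, a description over arrays that share tissues and one normalization).

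**Figure D3:**
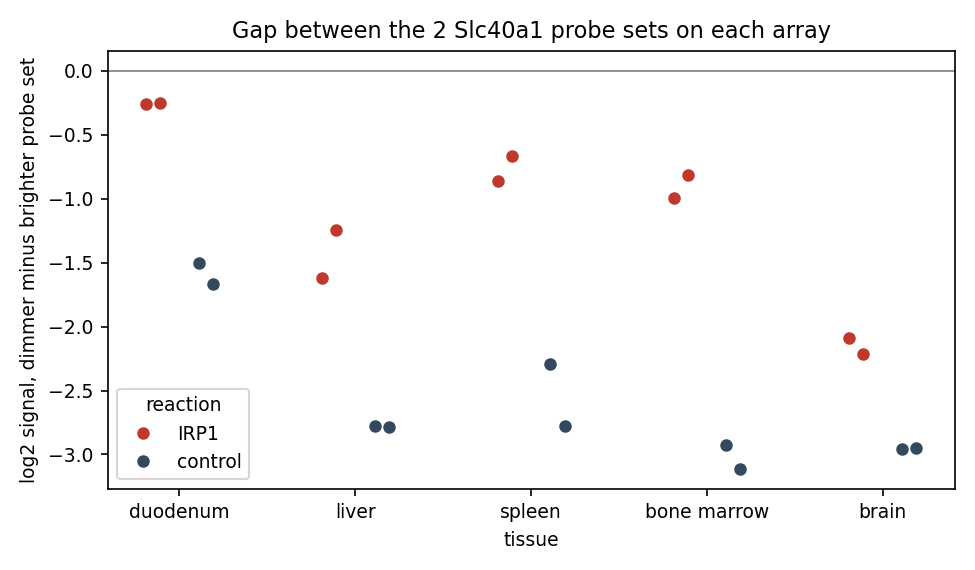
Log2 signal of the dimmer minus the brighter Slc40a1 probe set on each array (vertical axis), by tissue, IRP1 left of control. Every IRP1 array lies above both controls of its tissue, and the smallest shift of the mean, 0.80, is in brain, where it turns to -0.47 with a floor at log2 6.

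The control signal of the brighter probe set in duodenum stood near the upper end of the array scale. There, 112 other probe sets had a control mean at or above it, and 0 of them changed by 1 log2 unit or more. The largest of their changes was 0.57, of Fth1, the ferritin heavy chain mRNA, which carries a 5' IRE. At or above the dimmer probe set's duodenal control mean of 12.06 lay 799 others, and 2 of them changed by at least 1. One was Tfrc, the transferrin receptor, with a change of 1.82 (adjusted p = 0.0113), and the other has no gene symbol (1.01). A probe set shared by Ftl1, the ferritin light chain, and its pseudogenes read 14.15 with IRP1 and 11.15 in duodenal controls, a change of 3.00.

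In the other tissues, some IRE mRNAs with control signals as high as that of the brighter Slc40a1 probe set changed by 1 log2 unit or more. In bone marrow, 709 other probe sets had control means at or above its 11.78, and 5 changed by at least 1. They were Alas2, the first enzyme of erythroid heme synthesis (2.41), both Fth1 probe sets (1.88 and 1.55), a Tfrc probe set (1.86) and Mkrn1 (1.07). Mkrn1 is on neither IRE list and was not called, and the other 4 were. In liver, 871 others lay at or above it and 3 changed by at least 1, all of ferritin genes. In spleen it was 354 others, and 1 changed by at least 1, an Fth1 probe set (1.24). In liver and spleen 0 of these others were called higher. In brain, at a control mean of only 7.69, it was 9927 others. Of these, 39 changed by at least 1 and 12 were called higher. Among them were Ppp1r1b, Lpar1 and Kcnf1, which are on neither IRE list. How far the scale limits the ferroportin values was not tested.

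Set against the other probe sets of like control signal, in bins of 1 log2 unit, 9 of the 10 Slc40a1 changes lay above the 99th percentile of their bin. The exception was the brighter probe set in duodenum, at 0.21 against a 99th percentile of 0.31. The dimmer probe set exceeded the largest other change of its bin in 4 tissues. In liver it changed by 2.61, where the largest other change was 1.76, and in brain by 3.59, where it was 3.33. In spleen and bone marrow the margins were smaller, 2.54 against 2.48 and 3.86 against 3.78. The brighter one exceeded its bin only in brain, at 2.79 against 2.58.

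**Figure D4:**
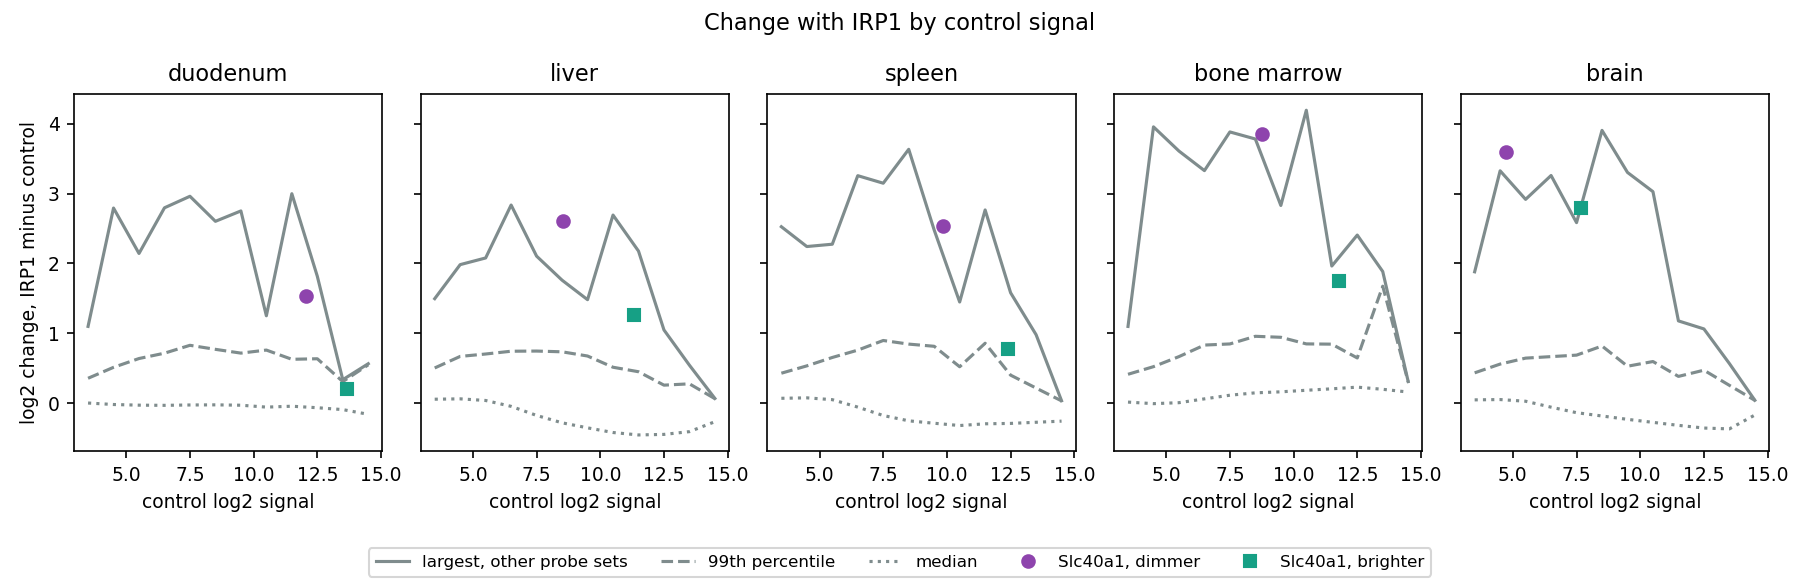
Log2 change with IRP1 (vertical axis) against control log2 signal (horizontal axis) in each tissue; lines give the largest change, the 99th percentile and the median of the other probe sets in bins of 1 log2 unit, and symbols the 2 Slc40a1 probe sets. The dimmer probe set lies above the largest other change of its bin in all tissues except duodenum, and the brighter one in duodenum, at 13.65 in controls, lies below the 99th percentile.

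Other mRNAs with an IRE were also higher with IRP1. Of the 5' IRE list, 4 of 6 genes were measured by a probe set of their own, and all 4 were called higher in the mean of the tissues, where 0.773% of all probe sets were. Besides Slc40a1 these were Alas2 (2.22), Epas1, the hypoxia factor HIF-2α (1.35), and Fth1 (0.84). Of 5 genes with an IRE in the 3' UTR, 3 were called higher, Tfrc (2.19), Slc11a2, the iron importer DMT1 (1.84), and Hao1, a hydroxyacid oxidase (1.32). Cdc14a and Cdc42bpa, at -0.10 and 0.13, were not. Counting each probe set on its own, 15 of the other 23 were called higher.

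In their tissue order, these 15 differed among themselves. Duodenum had the lowest change in 5 of them, bone marrow the highest in 10 and brain the highest in 3. The duodenal change minus that of the other 4 tissues ranged over all 23 between -1.10 and 0.29, so both Slc40a1 values lay below this range. At its lower end was an Slc11a2 probe set, with a duodenal reading of 13.44 with IRP1 and 12.70 in controls, a change of 0.74, and changes of 1.46 to 2.18 elsewhere. Another Slc11a2 probe set, at 12.95 with IRP1 and 11.20 in duodenal controls, changed by 1.75 in duodenum.

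Probe sets of other IRE genes also differed in their mean changes, given here with no test. The mean change of a gene's dimmest minus its brightest probe set was 1.47 for Slc40a1, 0.39 for Epas1, 0.32 for Fth1, -0.22 for Tfrc and -0.71 for Slc11a2. For Ftl1 and its pseudogenes it was -1.65, where the brightest probe set changed most. Probe sets between a gene's dimmest and brightest are left out of these values. For Slc11a2 one of them had a mean change of 0.02, against 1.13 to 1.84 on the other Slc11a2 probe sets.

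**Figure D5:**
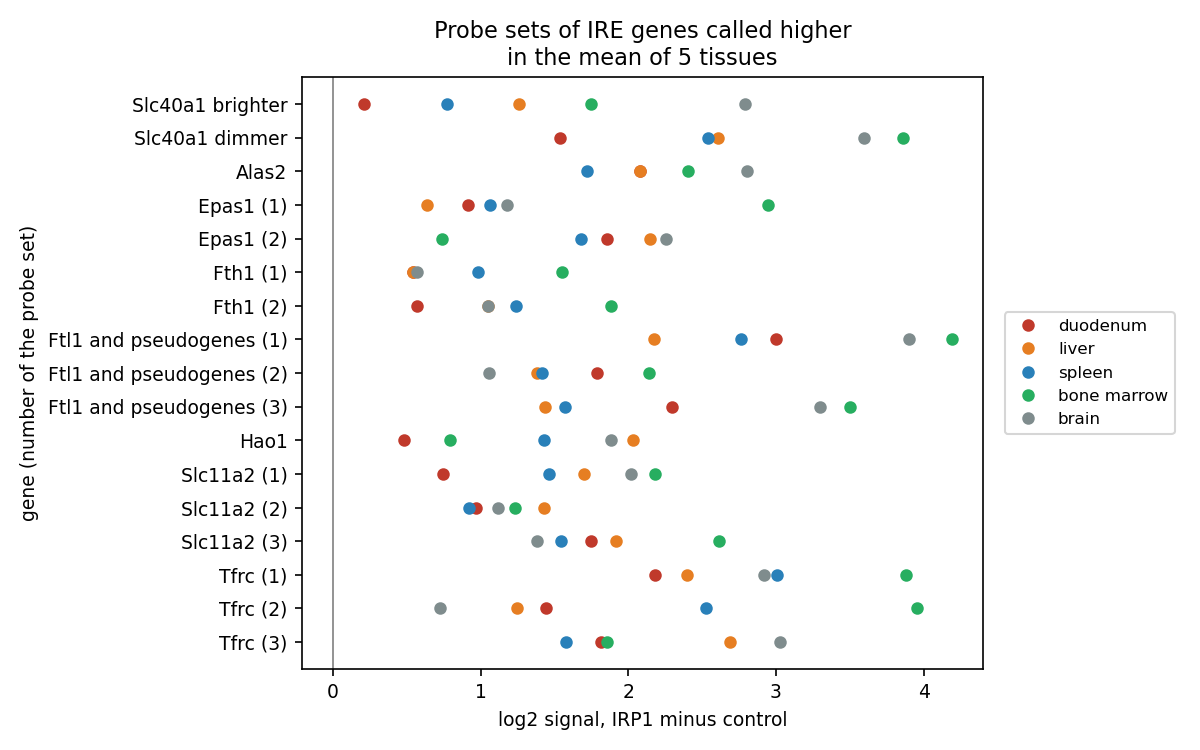
Log2 change, IRP1 minus control, in each of 5 tissues for the 2 Slc40a1 probe sets and the 15 other probe sets of IRE genes called higher in the mean. Duodenum is the lowest point on both Slc40a1 lines, and bone marrow is the highest on most other lines.

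Genes of ferroportin's partners, of its regulation and of iron uptake were not called with IRP1. Of 42 genes in 4 lists, 40 were measured, and limma called 0 in any tissue or in the mean. In the mean, 0.773% of all probe sets were called higher and 1.03% lower. Counted by gene, 166 of 18193 were called higher and 217 lower in the mean. At shares this small, 0 calls among 40 genes do not set them apart. In single tissues, 0.0244% of all probe sets were called lower in duodenum, 0.0933% in liver, 0.0333% in spleen, 0.00444% in bone marrow and 0.0377% in brain. At an unadjusted limma p under 0.05, 0 of the 40 were higher and 7 lower in the mean. Of all 18193 genes, 1163 were higher and 2157 lower at that threshold. The mean changes of the 40 ran between -0.33 and 0.18 with a median of -0.06, against a median of -0.01 over all genes. Heph and Cp, the ferroxidases that oxidise exported iron, changed by -0.07 and -0.18. Hamp, which encodes hepcidin, the hormone that removes ferroportin from the membrane, changed by 0.08. Cybrd1, the ferric reductase of the enterocyte brush border, changed by -0.19, and Aco1 and Ireb2, the genes of the iron regulatory proteins, by -0.20 and -0.29. Some of these means include signals below the array medians, where a change can hardly be seen. Control means of Hamp were 4.56 to 5.23 in all tissues. Outside duodenum they were 3.66 to 4.83 for Heph and 4.19 to 5.34 for Cybrd1. In duodenum, at 11.27 and 13.17 in controls, Heph and Cybrd1 changed by 0.16 and -0.29.

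By signal over the 20 arrays, the genes most like the brighter probe set were Nsun3, a mitochondrial tRNA methyltransferase (r = 0.943), the calpain inhibitor Cast (0.930), Gosr1 (0.917), Mtdh (0.911) and the translation release factor Etf1 (0.902). Those most like the dimmer were Nsun3 (0.924), Tmed7 (0.902), Fadd (0.888), Tm9sf3 (0.878) and Cast (0.877). These 20 arrays share tissues and one normalization, and the values are a description. Nsun3 itself changed by 0.22 with IRP1 in the mean of the tissues.

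By change with IRP1 in the 5 tissues, the closest to the dimmer probe set was 1 of the 3 Tfrc probe sets. It lay at a Euclidean distance of 1.06 log2 units, with changes of 2.18 in duodenum, 2.39 in liver, 3.01 in spleen, 3.88 in bone marrow and 2.92 in brain. Egr2 (1.33), Cep95 (1.40), Lrpap1 (1.49) and Lpar1 (1.97) followed. The Tfrc probe set of highest mean, used elsewhere for the gene, was another one. It changed by 1.82 in duodenum, 2.69 in liver, 1.58 in spleen, 1.86 in bone marrow and 3.03 in brain. The closest to the brighter was Ssbp3, at 0.949, with 0.45 in duodenum, 1.29 in liver, 1.40 in spleen, 1.68 in bone marrow and 2.13 in brain. Slc11a2 (1.32, on 1 of its 4 probe sets), Arfip2 (1.51), Simc1 (1.62) and Pacs1 (1.64) followed. The 2 Slc40a1 probe sets lay 3.44 from each other, farther than each lay from the listed probe sets of its own 5 genes. Those genes were picked as the closest, so this is a description only.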

How the data were processed

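RNA from 10 IRP1 and 10 control immunoprecipitations was hybridized to 20 arrays. The deposited values are log2 signals per probe set. The authors processed arrays with RMA, or with MAS5 in GCOS and then quantile normalization, per the labels' series text, and which route made the table is not given in the sources used here. After 64 Affymetrix controls were left out, the log2 values of 45037 probe sets were fitted as deposited with limma 3.58.1 in R 4.3.3 (10 group means, 10 residual degrees of freedom, no filter). P-values are two-sided and Benjamini-Hochberg adjusted over all probe sets in each contrast, and a call is an adjusted p under 0.05. The number of arrays limits the precision. A listed gene was represented by its probe set of highest mean with 1 symbol. Named genes were all measured members of the IRE lists, members of the other iron lists, and the 5 most alike by each measure, from probe sets with 1 symbol. Of the probe sets, 34945 have 1 symbol, 932 several and 9160 none. Calls were tested on simulated data. Alternatives were quantile normalization, a floor at log2 6, a filter at mean log2 5, array weights, a replicate block, fits on single tissues and leaving out arrays. The gene, its lists and the tests were chosen with earlier results of these data known. Figures were drawn with matplotlib 3.10.9.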

Additional observations from a re-analysis of the deposited data

How the results depend on the processing

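Of 40 differences between tissues, 5 turned sign under some alternative, and none of those 5 was called. The gap change in brain turned to -0.47 with the floor at log2 6. The other 19 results kept their direction, though the F values and counts of called genes among them cannot turn sign. Leaving out an array of another tissue also does not move the estimate of a single tissue. Of their 521 recomputed values, 495 kept their side of the threshold, 16 gained a call and 10 lost one. Quantile normalization added calls on the brighter probe set for liver (1.65), spleen (0.92), duodenum minus the other 4 tissues (-1.48) and the F-test (41.4), and on the dimmer for duodenum (1.69) and duodenum minus the others (-1.53). The dimmer duodenal change of 1.54 was called with the low-signal filter (adjusted p = 0.0368), array weights (0.00614), duodenal arrays alone (0.0262) and without the arrays of low hybridization controls (0.0280), an alternative chosen after seeing the data. That alternative also called brighter liver (1.26) and lost brighter bone marrow (1.45) and dimmer spleen (1.91). The floor lost brighter bone marrow (1.74, adjusted p = 0.0854). Fits on 1 tissue's arrays, with fewer degrees of freedom, lost dimmer spleen (2.54), brighter bone marrow (1.74), brighter brain (2.79) and dimmer brain (3.59). In spleen and in brain such a fit called 0 of all probe sets higher. Leaving out 1 array gave 0.13 to 0.29 for brighter duodenum, 0.35 to 1.19 for brighter spleen, 1.16 to 1.36 for brighter liver, 1.45 to 2.04 for brighter bone marrow, 9.68 to 19.6 for the brighter F value (called without spleen IRP1 replicate 2, adjusted p = 0.0319), 7.02 to 16.1 for the dimmer F value, 1.42 to 1.66 for dimmer duodenum and 2.02 to 3.06 for dimmer spleen. The deviations of same-numbered arrays correlated by 0.27 in duodenum, 0.53 in spleen and 0.12 in brain, but by -0.07 in liver and -0.04 in bone marrow, so the numbers were not taken to pair the samples in all tissues. A replicate block changed no call, and with it the dimmer mean change was 2.83 (adjusted p = 1.53e-07).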
